A study of Mus musculus with 12 samples.

Results

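Plasma membrane and lysosomal amino acid carriers of the SLC1, SLC3, SLC7, SLC36 and SLC38 families were examined in mouse megakaryocytes, the marrow cells that shed platelets, after 6 h of dexamethasone. Members were all genes whose array annotation gave exactly 1 symbol beginning with Slc1a, Slc3a, Slc7a, Slc36a or Slc38a and a number. They came to 40 of the 30142 genes named on the array, each represented by its brightest probe set, and each had just 1. Of these, 39 encode carriers or carrier subunits, and Slc7a6os, which lies next to Slc7a6 and shares its name, does not. Of the 40, 34 passed the filter on dim genes and were tested among 24265 genes. The carriers Slc1a3, Slc1a6, Slc7a9, Slc7a13, Slc38a4 and Slc38a11 were too dim to test.

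The cells were grown from bone marrow stem cells of male C57BL/6 mice with thrombopoietin, so all arrays share that strain, sex and hormone, a night in charcoal-stripped serum, and purification on an albumin gradient. Dexamethasone, a synthetic glucocorticoid, was given at 100 nM to one portion of each of 6 cultures and vehicle to the other, which gave 6 arrays per treatment. A culture is called here by its replicate number, 1 to 6. The sources used here do not say whether each culture came from separate mice, nor how old the mice were. The p-values therefore measure only how the difference between treatments varied over these cultures.

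Amino acids cross membranes on carriers that differ in substrate and driving force. SLC7 light chains such as Slc7a5 form dimers with a heavy chain, Slc3a2 (CD98) or Slc3a1, which brings them to the surface and without which they do not reach it. Slc7a5 and Slc7a8 exchange large neutral amino acids such as leucine, Slc7a11 takes in cystine for glutathione, and Slc7a1 takes in arginine and lysine. Many but not all SLC1 and SLC38 carriers use the sodium gradient to take in glutamate or small neutral amino acids such as glutamine. SLC36 carriers use protons, and Slc38a9 reports lysosomal amino acids to mTORC1, the kinase complex that couples nutrients to growth.

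On these arrays the carriers were sorted into those above background and those below it. Levels are the authors' log2 values, and the median of the array's negative control probe sets, 6.15 to 6.39 over the 12 arrays, stands for background. On all 12 arrays, 18 of the 40 genes lay above that median and 21 below it, and Slc3a1 lay on either side. Slc3a2 and Slc38a2 alone lay above the 95th percentile of the negative controls on all 12 arrays. Slc38a1 lay above it on 9 and Slc7a5 on 3. A carrier below background gives no sign of its presence, and a change of it could go unseen. Many negative controls also lie above their own median, so a place above background does not by itself establish expression.

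**Figure D1:**
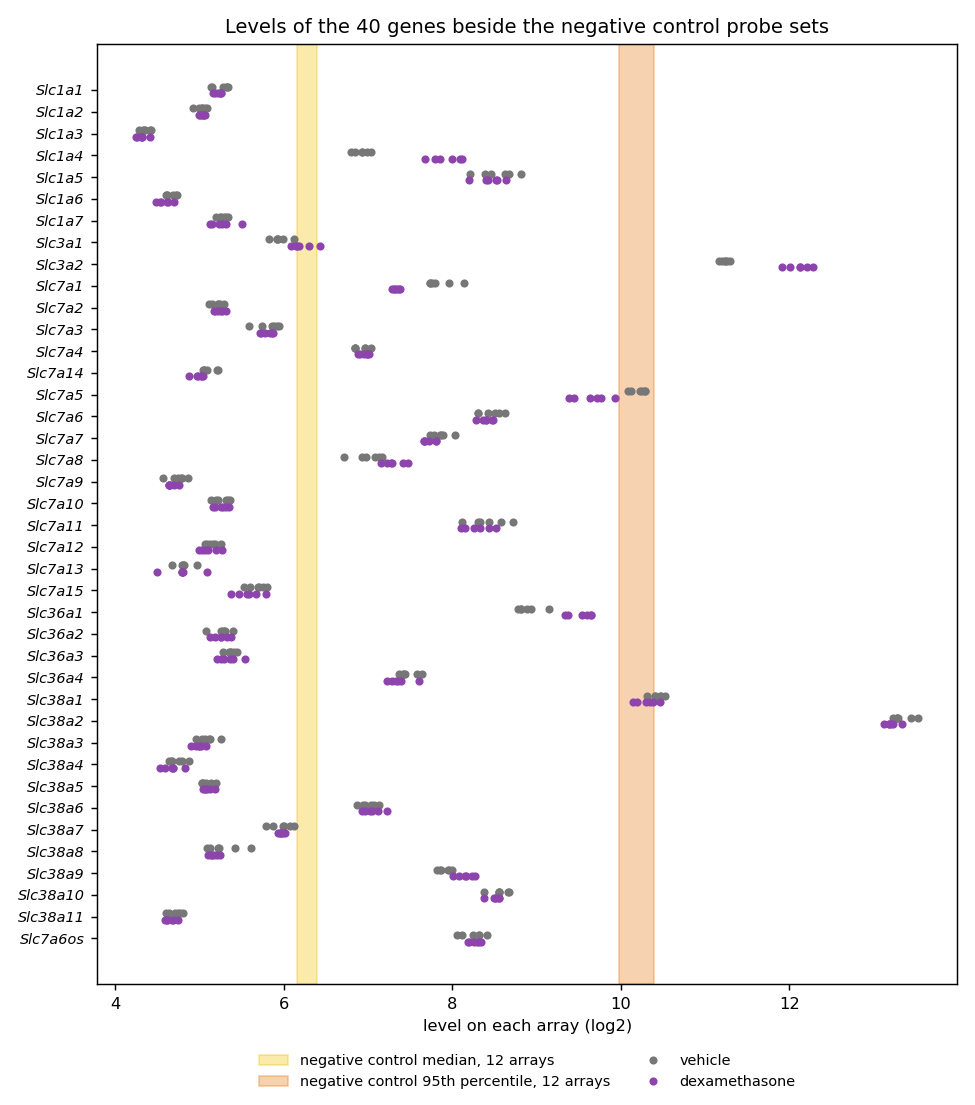
Log2 level of the 40 genes on each of the 12 arrays, vehicle in grey and dexamethasone in purple, ordered by family; the shaded bands are the range over arrays of the negative control median (6.15 to 6.39) and 95th percentile (9.98 to 10.39). The 21 genes left of the first band on all arrays include the 5 glutamate carriers, and levels of different genes are not comparable.

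After 6 h, 8 of the 34 tested genes differed between treatments at an adjusted p under 0.05 by limma, 6 higher and 2 lower in dexamethasone. That is 23.5%, beside 12.0% of all genes tested (7.39% higher and 4.56% lower). Where the fit held only genes above the negative control median on at least 6 arrays, 7 of 18 members passed (38.9%), beside 26.3% of all genes (16.8% higher and 9.48% lower). In 10 of the 34 genes all 6 cultures moved the same way, beside a smaller share, 19.6%, of all tested genes. In 7 of the 34 the arrays of the treatments did not overlap, beside a smaller share, 6.73%, of all. Slc1a4, Slc3a2 and Slc36a1 rose most and Slc7a5 and Slc7a1 fell, each by more than 0.5 on the log2 scale, which 2.25% of all tested genes did while passing the threshold. Slc7a8, Slc3a1 and Slc38a9 rose by less. The median change of the 34 was -0.02, beside -0.01 for all tested genes, and their median absolute change was 0.09 in both. Without culture 3 or culture 4, the calls numbered 6, since Slc7a8 and Slc38a9 were lost.

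**Figure D2:**
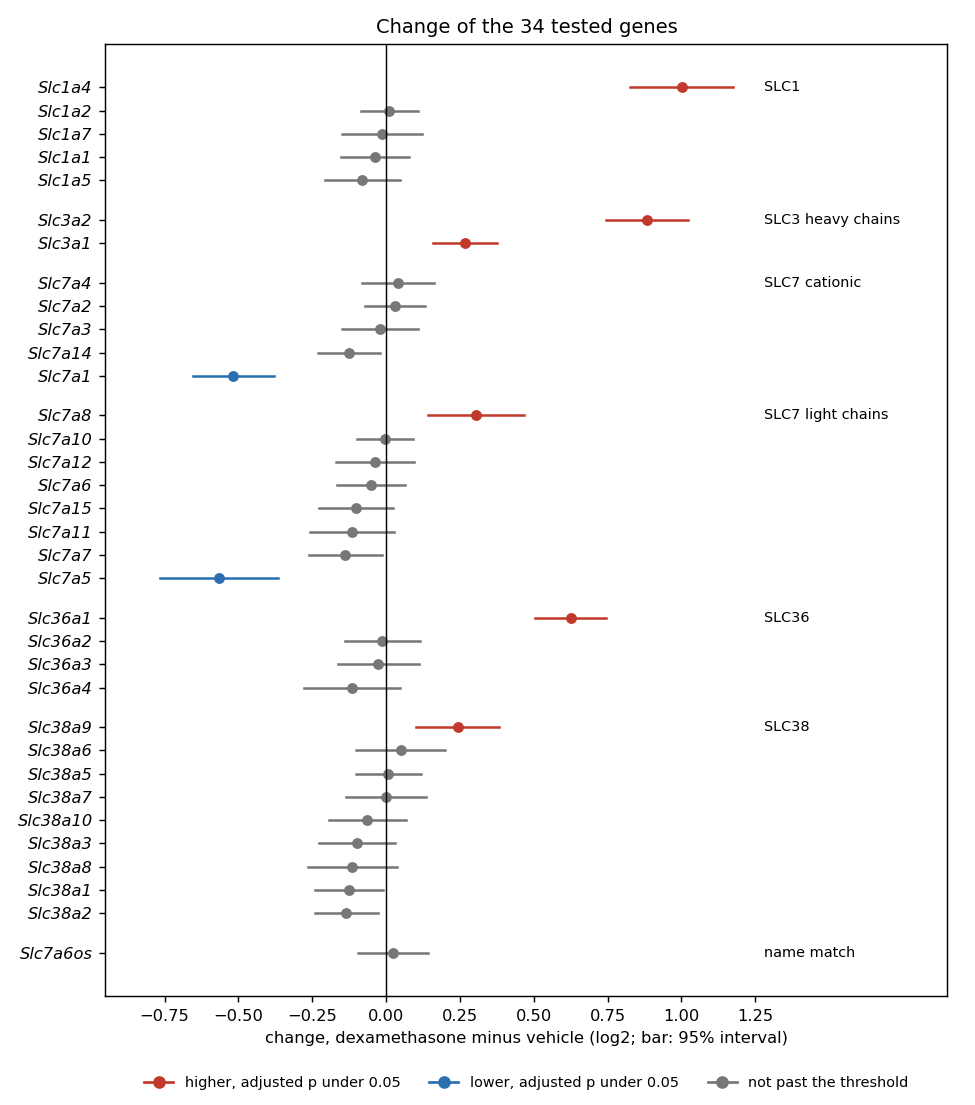
Change of each of the 34 tested genes (dexamethasone minus vehicle, log2, from the paired fit) with its 95% interval, grouped by family; red and blue mark genes past the threshold. Slc1a4 and Slc3a2 stand farthest to the right at 1.00 and 0.88, and Slc7a5 and Slc7a1 farthest to the left at -0.57 and -0.52.

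The heavy chain Slc3a2 rose 1.84-fold. In vehicle its level ran from 11.16 over a median of 11.23 to 11.30, and in dexamethasone from 11.91 over 12.13 to 12.28. All 6 dexamethasone arrays lay above all 6 vehicle arrays. The change was 0.88 (SE 0.06, adjusted p = 3.65e-05 by limma, n = 6 pairs), from 0.61 in culture 6 to 1.05 in culture 3. Slc3a1, the heavy chain of the kidney cystine carrier, rose by 0.27 (SE 0.05, limma adjusted p = 0.00783) at the edge of background. Its level was 5.95 ± 0.10 in vehicle and 6.22 ± 0.12 in dexamethasone (SD, n = 6), and 6 of 6 vehicle and 3 of 6 dexamethasone arrays lay below the negative control median.

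Of the light chains, Slc7a5 (LAT1), the leucine exchanger that pairs with Slc3a2, fell 1.48-fold while its heavy chain rose. Vehicle arrays ran from 10.08 over 10.24 to 10.29 and dexamethasone arrays from 9.38 over 9.68 to 9.93, without overlap. The change was -0.57 (SE 0.09, limma adjusted p = 0.00378). It varied more between cultures than that of Slc3a2, from -0.85 in culture 1 and -0.81 in culture 6 to -0.14 in culture 4. In each of the 6 cultures the heavy chain moved up and this light chain down, and the change of Slc3a2 exceeded that of Slc7a5 by 1.45 ± 0.24 (SD, n = 6, range 1.04 to 1.71).

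Slc7a8 (LAT2), a second partner of Slc3a2 with overlapping substrates, rose 1.24-fold. Vehicle arrays ran from 6.71 over 7.03 to 7.17 and dexamethasone arrays from 7.15 over 7.28 to 7.47, so the groups overlapped slightly although all 6 cultures were higher. The change was 0.30 (SE 0.07, limma adjusted p = 0.0263). It was smallest, 0.06, in culture 1 and largest, 0.56, in culture 2, whose vehicle array was the lowest of the 6, which by itself enlarges the change. Its adjusted p rose to between 0.0524 and 0.0821 when culture 2, 3, 4 or 6 was left out and when every probe set of the array entered the fit.

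The other light chains above background did not pass. The cystine carrier Slc7a11 (xCT) had a vehicle level of 8.41 ± 0.22 and a dexamethasone level of 8.30 ± 0.16, which differed by -0.12 (95% interval -0.26 to 0.03). Slc7a7 and Slc7a6, which exchange cationic for neutral amino acids, differed by -0.14 (interval -0.26 to -0.02, limma adjusted p = 0.143) and by -0.05 (interval -0.17 to 0.06). A change of the size of the Slc7a5 fall lies outside all of these intervals. Slc7a10, Slc7a12 and Slc7a15 lay below background on all arrays and did not pass either.

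**Figure D3:**
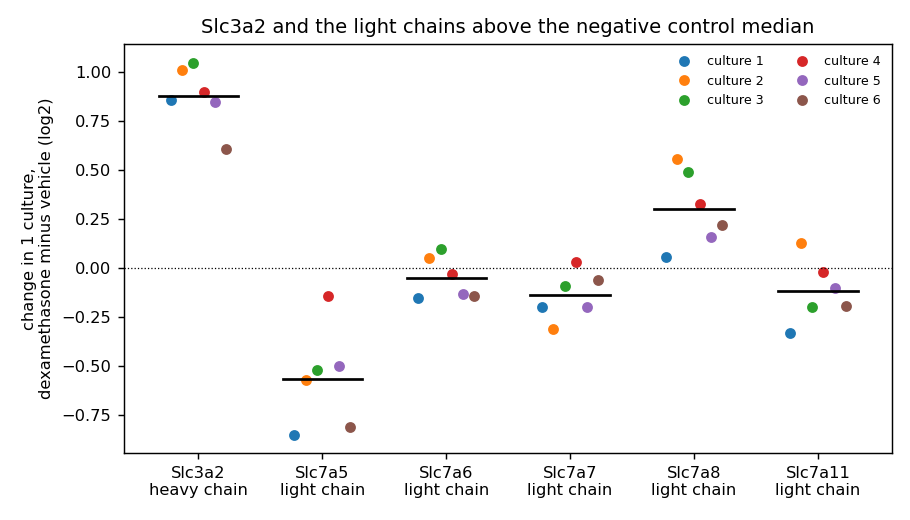
Change in each of the 6 cultures (dexamethasone minus vehicle, log2; black bar, mean change) of Slc3a2 and of the 5 light chains above background. Slc3a2 lies between 0.61 and 1.05 and Slc7a5 between -0.85 and -0.14 in every culture, and Slc7a6, Slc7a7 and Slc7a11 lie on both sides of 0.

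Among the cationic carriers, Slc7a1 (CAT1), the widespread arginine and lysine carrier, fell 1.43-fold. Vehicle arrays ran from 7.73 over 7.77 to 8.14 and dexamethasone arrays from 7.28 over 7.33 to 7.38, with no overlap. The change was -0.52 (SE 0.06, limma adjusted p = 0.000706), from -0.77 in culture 1 to -0.38 in culture 4. The dexamethasone arrays were closer together than the vehicle arrays, with an SD of 0.04 against 0.16, a difference that was not tested. Culture 1 had the highest vehicle level, which by itself enlarges the fall, and the largest fall. Of the relatives of Slc7a1, Slc7a4 was 6.91 ± 0.08 and 6.96 ± 0.05, and Slc7a2, Slc7a3 and Slc7a14 lay below background on all arrays. Slc7a14 was lower in all 6 cultures, at 5.11 ± 0.08 and 4.99 ± 0.06 without overlap, and did not pass (limma adjusted p = 0.123).

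Slc1a4 (ASCT1), which carries alanine, serine and cysteine, rose 2.0-fold, the largest change among the 34 tested genes. Vehicle arrays ran from 6.80 over 6.93 to 7.04 and dexamethasone arrays from 7.68 over 7.93 to 8.11, without overlap. The change was 1.00 (SE 0.08, limma adjusted p = 6.43e-05). It was largest in culture 2 at 1.26 and smallest in culture 6 at 0.75. Its close relative Slc1a5 (ASCT2), which carries glutamine, was 8.53 ± 0.22 in vehicle and 8.45 ± 0.15 in dexamethasone, and differed by -0.08 (interval -0.21 to 0.05, limma adjusted p = 0.399). The Slc1a5 level differed more between cultures than between treatments, with culture 2 lowest in both groups, at 8.21 and 8.20, and culture 1 highest, at 8.82 and 8.64. Culture 2 was also lowest, and in vehicle culture 1 highest, in the summed signal of neutrophil markers, whose part in this result was not tested. The glutamate carriers Slc1a1, Slc1a2, Slc1a3, Slc1a6 and Slc1a7 lay below background on all arrays.

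The proton-coupled carrier Slc36a1 (PAT1), which moves small neutral amino acids out of lysosomes, rose 1.54-fold. Vehicle arrays ran from 8.78 over 8.86 to 9.15 and dexamethasone arrays from 9.34 over 9.57 to 9.65, without overlap. The change was 0.63 (SE 0.05, limma adjusted p = 0.000111) and lay between 0.50 and 0.79 in the 6 cultures, a narrower span than that of Slc3a2 or Slc1a4. Slc36a2 and Slc36a3 are its next coding neighbours on chromosome 11, and both lay below background on all arrays. Slc36a4, elsewhere in the genome, was 7.48 ± 0.11 and 7.36 ± 0.13 and did not pass (limma adjusted p = 0.339).

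In the SLC38 family, 1 of 9 tested genes passed (11.1%, beside 12.0% of all genes tested). Slc38a9, the lysosomal arginine sensor, rose 1.18-fold by 0.24 (SE 0.06, limma adjusted p = 0.038). Vehicle arrays ran from 7.82 over 7.91 to 8.0 and dexamethasone arrays from 8.01 over 8.16 to 8.27, so the groups just did not overlap, and the rise was 0.42 in culture 1 but 0.05 in culture 6. The call ended in 6 of 16 alternative analyses, at an adjusted p of 0.107 after quantile normalization, 0.106 with every probe set of the array, and 0.0722 to 0.11 without culture 1, 3, 4 or 5.

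Slc38a2 (SNAT2), the sodium-coupled carrier known to be induced when amino acids run short, is well above the negative controls. Its level was 13.34 ± 0.12 in vehicle and 13.21 ± 0.07 in dexamethasone, lower in all 6 cultures by 0.05 to 0.26, and did not pass (limma adjusted p = 0.102). Its neighbour on chromosome 15, the glutamine carrier Slc38a1, was 10.43 ± 0.08 and 10.30 ± 0.12, lower in 5 of 6 cultures (limma adjusted p = 0.149). After quantile normalization both passed, at -0.18 with an adjusted p of 0.0173 and at -0.19 with 0.0397, and the members past the threshold then numbered 5 higher and 4 lower (55.6% higher, against 75% as deposited), beside 5.84% and 7.16% of all genes. Slc38a6 and Slc38a10 lay above background and did not pass. Slc38a3, Slc38a5, Slc38a7 and Slc38a8 lay below background throughout, as did the untested Slc38a4 and Slc38a11. Slc7a6os was 8.24 ± 0.13 and 8.27 ± 0.06.

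**Figure D4:**
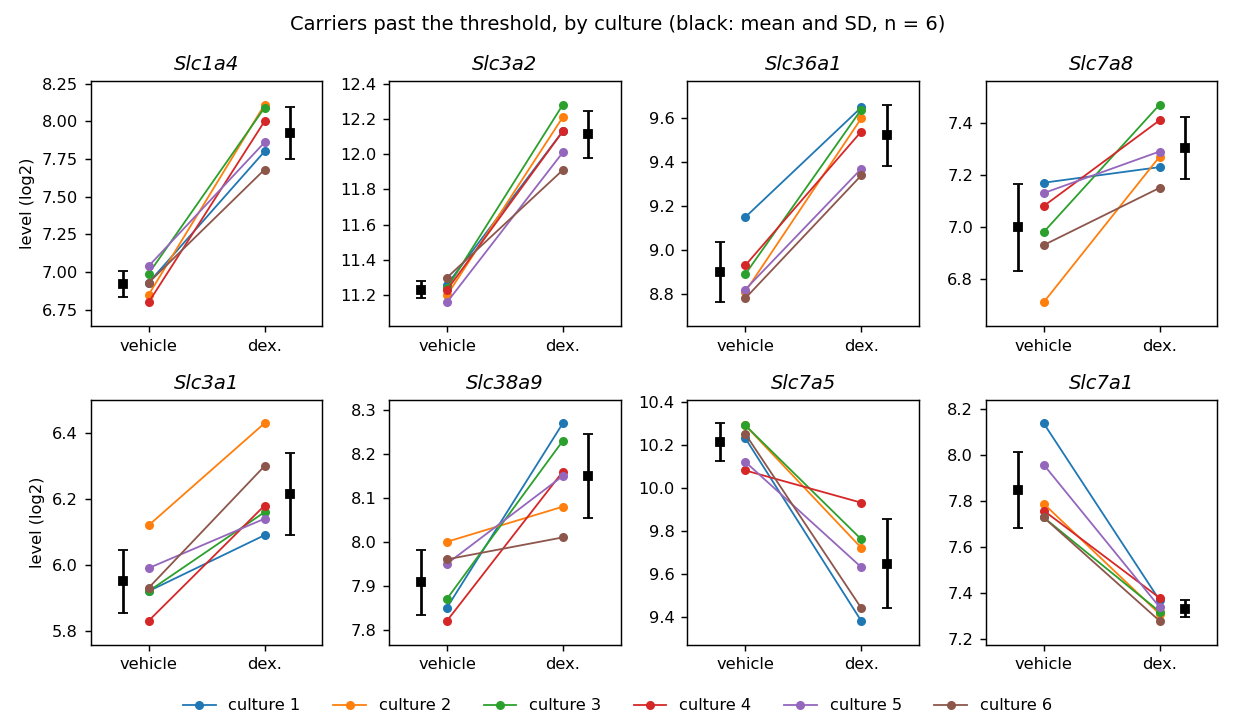
Log2 level of the 8 genes past the threshold in vehicle and dexamethasone, a coloured line per culture, with the mean and SD (n = 6) in black; each panel has its own scale. All lines of Slc1a4, Slc3a2, Slc36a1, Slc7a8, Slc3a1 and Slc38a9 go up and all lines of Slc7a5 and Slc7a1 go down.

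The promoter sequences of the members that changed most are given to show which known motifs their start regions hold. RefSeq windows of 300 bases (GRCm38.p6), from 250 before to 50 after a transcript start, were at hand for 30 of the 40 members in 40 windows, some of which overlap. They are given for the carriers past 0.5 that have one, with Slc7a11 as a carrier that did not pass. Capitals mark a glucocorticoid receptor half-site (TGTTCT or its reverse complement AGAACA), a C/EBP-ATF composite site (TGATGNAA, where ATF4 binds under amino acid stress) or an E-box (CACGTG), on either strand.
Slc3a2 (chr19:8713848-8714147, minus strand): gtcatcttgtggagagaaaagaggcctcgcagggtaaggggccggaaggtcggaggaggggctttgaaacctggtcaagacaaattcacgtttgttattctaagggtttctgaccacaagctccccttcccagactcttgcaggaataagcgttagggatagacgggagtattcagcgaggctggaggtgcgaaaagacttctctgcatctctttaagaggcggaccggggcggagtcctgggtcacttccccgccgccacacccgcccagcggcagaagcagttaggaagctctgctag
Slc1a4 (chr11:20332664-20332963, minus strand): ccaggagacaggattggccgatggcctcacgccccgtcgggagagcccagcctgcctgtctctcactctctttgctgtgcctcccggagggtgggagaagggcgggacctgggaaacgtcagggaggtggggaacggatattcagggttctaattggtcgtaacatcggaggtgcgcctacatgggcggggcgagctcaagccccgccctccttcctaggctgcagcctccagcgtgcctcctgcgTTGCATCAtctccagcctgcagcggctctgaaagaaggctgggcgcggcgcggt
Slc36a1 (chr11:55204090-55204389, plus strand): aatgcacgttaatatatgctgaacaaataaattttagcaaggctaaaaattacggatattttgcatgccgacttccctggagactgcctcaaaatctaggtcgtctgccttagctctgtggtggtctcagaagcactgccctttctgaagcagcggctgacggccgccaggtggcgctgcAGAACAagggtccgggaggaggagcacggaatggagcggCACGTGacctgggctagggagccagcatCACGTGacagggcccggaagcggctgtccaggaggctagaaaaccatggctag
Slc7a1, outer window (chr5:148399855-148400154, minus strand): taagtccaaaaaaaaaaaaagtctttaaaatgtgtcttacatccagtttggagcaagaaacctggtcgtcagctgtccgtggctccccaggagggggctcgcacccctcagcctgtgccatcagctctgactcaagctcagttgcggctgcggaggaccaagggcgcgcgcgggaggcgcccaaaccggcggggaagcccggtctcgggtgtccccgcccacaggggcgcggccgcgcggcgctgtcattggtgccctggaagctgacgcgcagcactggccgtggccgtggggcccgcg
Slc7a1, inner window (chr5:148392766-148393065, minus strand): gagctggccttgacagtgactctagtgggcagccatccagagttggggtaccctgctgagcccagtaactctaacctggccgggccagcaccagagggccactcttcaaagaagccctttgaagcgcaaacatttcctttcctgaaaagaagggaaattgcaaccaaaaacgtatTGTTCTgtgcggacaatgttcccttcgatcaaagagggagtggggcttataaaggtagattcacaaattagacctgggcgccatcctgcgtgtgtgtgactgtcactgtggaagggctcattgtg
Slc7a11 (chr3:50443564-50443863, minus strand): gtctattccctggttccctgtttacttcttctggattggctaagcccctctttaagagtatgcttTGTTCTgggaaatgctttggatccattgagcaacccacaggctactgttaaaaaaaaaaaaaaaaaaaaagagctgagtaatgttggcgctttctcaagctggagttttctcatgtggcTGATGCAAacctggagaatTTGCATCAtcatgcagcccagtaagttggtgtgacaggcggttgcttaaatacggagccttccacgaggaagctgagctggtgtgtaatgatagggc
The full glucocorticoid response element, AGAACA and TGTTCT with any 3 bases between, matched 0 of the 40 windows and 0.00913% of all 32851. At so low a share, 0 matches in 40 windows says little about these genes, and imperfect forms of the element were not searched. A half-site lay in windows of 6 of the 30 members (25% of member windows, 19.0% of all windows), namely Slc36a1, Slc7a1, Slc7a11, Slc1a3, Slc38a4 and Slc7a7. Slc7a7 has 5 of those windows, some overlapping over the same match, and without it the share was 14.3% (5 of 35). The composite lay in windows of Slc1a4, Slc7a11 and Slc7a7 (10.0%, beside 3.97% of all, and 5.71% without Slc7a7). In Slc1a4 it began 4 bases before the start, and Slc7a11 held it in both orientations. E-boxes lay in 15% of member windows, beside 7.15% of all, with a pair in Slc36a1. The other windows with an E-box were those of Slc1a6, Slc1a7, Slc38a5, Slc38a7 and Slc7a14, genes below background on all arrays. None of these motifs occurred in the Slc3a2 window. A match is a run of letters and no measured binding, and sites outside these windows were not searched.

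Other genes of amino acid handling were counted in the same fit, from lists drawn up with earlier results of these data known. Among carriers of other families, 1 of 26 tested rose and 2 fell. Ctns, the lysosomal cystine exporter, rose by 0.34 (SE 0.06), and Slc6a6, the taurine carrier, fell by 0.29 (SE 0.05) from a level of 13.34 ± 0.08. The mitochondrial aspartate-glutamate carrier Slc25a13 fell by 0.28, with 5 of 6 vehicle and 6 of 6 dexamethasone arrays below background, and its call ended in 2 of 15 alternatives. Neither Slc16a10 (0.19, limma adjusted p = 0.173), which carries aromatic amino acids, nor Slc43a1 (-0.05), a uniporter for leucine, passed.

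Of 38 tested genes of amino acid sensing and mTORC1, 6 rose and 6 fell. The largest rise was that of Ddit4, an inhibitor of mTORC1, from 9.13 ± 0.22 to 10.96 ± 0.27, a 3.55-fold change (limma adjusted p = 3.46e-07). Nprl3, a subunit of the GATOR1 complex that shuts mTORC1 off when amino acids are low, rose by 0.54 (SE 0.06). Its partner Depdc5 rose by 0.34, and the remaining partner Nprl2 (0.18, limma adjusted p = 0.189) did not pass. Sesn1, a relative of the leucine sensor Sesn2, fell by 0.56 (SE 0.05), while Sesn2 rose by 0.31. Mios, a subunit of the opposing GATOR2 complex, fell by 0.39 (SE 0.06), and its partners Seh1l, Sec13, Wdr24 and Wdr59 did not pass. The other genes past the threshold were Deptor, at the edge of background, and Flcn, which rose, and Tsc1, Lamtor3, Lamtor5 and Lars, which fell. Tsc1 (-0.18, limma adjusted p = 0.0411) belongs to a complex that, like Ddit4, restrains mTORC1. The kinase Mtor itself was 8.41 ± 0.11 and 8.37 ± 0.09.

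Of 15 tested genes of the amino acid stress response, 3 rose and 1 fell. Asns, the asparagine synthetase that ATF4 induces, fell by 0.49 (SE 0.05, limma adjusted p = 0.000473), and Ppp1r15a, which restores translation, rose by 0.74 (SE 0.07). The kinase Eif2ak1 rose by 0.28 and the transcription factor Cebpb by 0.31, a call that ended in 5 of 16 alternatives. Atf4 was 9.25 ± 0.16 and 9.13 ± 0.07 and Ddit3 12.49 ± 0.15 and 12.35 ± 0.17, and neither passed. Slc3a2, Slc1a4, Slc7a5, Slc7a1 and Slc7a11 are known targets of ATF4 in other cells, and here the first pair rose, the next pair fell and Slc7a11 did not pass.

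Among enzymes that use the carried amino acids, 3 of 24 tested rose and 4 fell. Gclc, which joins cysteine to glutamate in the first step of glutathione synthesis, rose 4.35-fold, from 10.63 ± 0.25 to 12.75 ± 0.37, while the cystine carrier Slc7a11 did not pass. Bcat2, the mitochondrial transaminase of leucine, isoleucine and valine, rose 1.66-fold. The proline synthesis enzyme Aldh18a1 fell by 0.43 (SE 0.09) and the serine hydroxymethyltransferase Shmt2 by 0.31 (SE 0.07), and their calls ended in 1 and 4 of 16 alternatives. Of 7 tested regulators of carrier trafficking, 2 fell: the ubiquitin ligase Nedd4l by 0.37 (SE 0.05) and Laptm4b, which recruits Slc7a5 with Slc3a2 to lysosomes, by 0.32 (SE 0.06). Sgk1, a kinase that restrains Nedd4l, lay below background on all arrays. The shares called in the 5 lists were 11.5%, 31.6%, 26.7%, 29.2% and 28.6% in the order given, beside 12.0% of all genes tested and 26.3% of genes above background. Of the sensing genes 35 of 39 measured, and of the stress genes 13 of 16, lay above background on all arrays. Median changes of the lists lay between -0.03 and 0.06, beside -0.01.

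**Figure D5:**
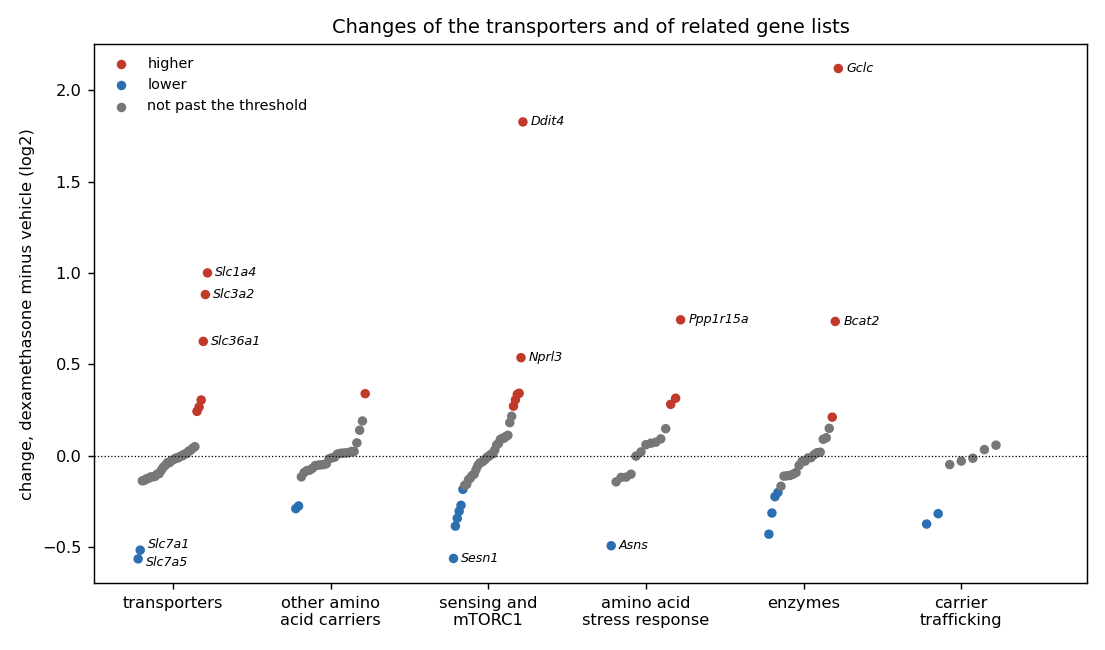
Change (dexamethasone minus vehicle, log2) of each tested gene among the transporters and in the 5 related lists, ranked within its list; red and blue mark genes past the threshold, and those changed by about 0.5 or more are named. Gclc at 2.12 and Ddit4 at 1.83 lie above all transporters, of which Slc1a4 at 1.00 is the highest.

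The cultures carried the markers of megakaryocytes: all 13 measured, Pf4, Itga2b and Gp9 among them, lay above the 95th percentile of the negative controls on every array. Of these 13, Gp9 (0.44), Gata1 (0.29) and Clec1b (0.24) rose, and Tubb1, the tubulin of the platelet rim, fell 2.21-fold. The Tubb1 level went from 13.38 ± 0.39 to 12.24 ± 0.47 (limma adjusted p = 4.71e-06), a larger change than that of any carrier. The share of the 13 called was 30.8%, beside 12.0% of all genes tested and 26.3% of genes above background. Their summed signal ran from 20.60 to 20.72 in vehicle and from 20.63 to 20.78 in dexamethasone (log2). Some markers of other cells lay above background, and whether other cells or the megakaryocytes themselves gave this signal was not tested. In such bulk RNA fewer cells of a type and less RNA per cell cannot be told apart. Of 12 neutrophil markers S100a8, S100a9, Ltf and Camp fell and Mmp8 rose with dexamethasone (41.7% called, beside 12.0% of all genes tested). Of the 12, 3 lay above background on all arrays, and Elane alone lay below it on all. Ltf lay below background on 4 of 6 vehicle and 6 of 6 dexamethasone arrays, and Mmp8 on 3 of 6 vehicle arrays. The summed signal of the 12 ran from 11.86 to 14.55 in vehicle and from 10.69 to 13.88 in dexamethasone (log2). It was lower in dexamethasone in every culture and lowest in culture 2. S100a8 (12.36 in vehicle) and S100a9 (12.54) were by far the brightest of the 12, so the sum mostly follows them. Without culture 2, 7 members passed, and Slc7a8 was the one lost. Of 9 tested mast cell and basophil markers 2 rose and 1 fell (33.3%, beside 12.0% of all genes tested), and the summed signal of the 10 measured was 9.70 to 9.90 in vehicle and 9.92 to 10.16 in dexamethasone. Cpa3, a mast cell protease, rose from 7.73 ± 0.14 to 8.37 ± 0.25, and Gata2, a transcription factor that megakaryocytes also express, rose by 0.21. The basophil protease Mcpt8 fell by 0.28, and Fcer1a, Ms4a2, Tpsb2, Hdc and Il4 lay below background on all arrays. Of 12 macrophage markers 9 lay below background on all arrays, as did 7 of 9 lymphocyte and 3 of 5 erythroid markers. The part of these marker changes in the carrier results was not tested.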

How the data were processed

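RNA of 12 samples (6 vehicle, 6 dexamethasone) was measured on 1-colour arrays, per the labels' protocols from 50 ng of amplified, biotin-labelled RNA. The deposited table holds log2 values of 72688 probe sets. The sources used here do not name the background correction, normalization or summarization, and the log2 scale rests on the range of the values (2.07 to 19.93). Array medians lay within 0.10 of each other, so the values were used as deposited. The number of arrays limits the precision.

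Probe sets with 1 distinct symbol (30604; 2146 had several) gave 30142 genes, each by its brightest probe set over all arrays, and 2 family probe sets with several symbols were left out. Gene numbers matched 22818 probe sets to the RefSeq table of GRCm38.p6. Genes under an array's 25th percentile on more than 6 arrays were not tested. limma 3.58.1 in R 4.3.3 (lmFit, eBayes) was fitted over all 24265 genes with culture as a block, two-sided, with Benjamini-Hochberg adjustment and a threshold of 0.05. The script was tested on simulated data.

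The pairing comes from the labels' protocols, by which cultures were split. Deviations of same-numbered arrays correlated at 0.0493 to 0.247 (mean 0.157, over 0.1 in 4 of 6 pairs), against a mean of -0.0316 for other pairs. Members and gene lists were chosen with earlier results of these data known. Any member could be named. Of each related list up to 4 genes past the threshold with the largest change, moved the same way in all 6 cultures, were named by rule. Depdc5, Nprl2, Seh1l, Sec13, Wdr24, Wdr59, Deptor, Flcn, Tsc1, Lamtor3, Lamtor5, Lars, Sesn2, Slc16a10, Slc43a1, Mtor, Atf4, Ddit3 and Sgk1 were added after their values were seen. So were the single cell type markers and the motif shares without Slc7a7. Protein comparisons were not run. List genes without a probe set of 1 symbol were not analysed here.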

Additional observations from a re-analysis of the deposited data

Results flagged for a closer look

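Of 68 groups of 6 arrays (34 tested genes in both treatments), 1 held an array that stood apart by Dixon's test, where chance gives about 1 in 20. Slc38a10, an SLC38 carrier, was 8.38 in dexamethasone culture 6, below the other dexamethasone arrays at 8.5 to 8.56.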

How the results depend on the processing

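Of the 8 carriers past the threshold, Slc1a4, Slc3a2, Slc36a1, Slc7a1 and Slc7a5 stayed past it in all 16 alternatives. Slc3a1 stayed past it in the 15 that tested it. The fit of genes above the negative control median left Slc3a1 out. None of the 30 genes whose change was recomputed (the main carriers and the list genes named by rule) changed sign. Most of them moved the same way in all 6 cultures, so leaving out a culture could not change their sign. Several other alternatives left the size of the change as it was. Other named genes were not recomputed. Over the 8 genes the call was kept in 116 of 127 cases and lost in 11, all of them Slc7a8 (5) or Slc38a9 (6). The cases kept include the mean of all probe sets of a gene, which leaves members unchanged, since each had just 1. Quantile normalization gave 4 lower members and 1738 lower genes (44.9% of calls higher, against 61.9%), and centring on array medians 726 lower genes (70.3% higher). With every probe set of the array fitted, 6 members and 1482 genes passed (956 higher, 526 lower). The fit with no replicate block called the same number of members, 8, and 2452 genes, and culture as a random effect 8 and 3159. Leaving out 1 culture gave 6 to 7 members (4 to 5 higher, 2 lower) and 1876 to 2334 genes (1163 to 1520 higher, 711 to 853 lower). The cause of these shifts was not tested. Dim carriers, 21 of 40 below background on all arrays, limit what could be seen.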
